A study of Mus musculus with 6 samples.

Results

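The metabotropic glutamate receptors described here are the 7 genes Grm2, Grm3, Grm4, Grm5, Grm6, Grm7 and Grm8. They were found by matching the Ensembl identifiers of the count tables to GENCODE M21 symbols, and they are 7 of the 60354 features in each table. Group I is represented by 1 gene (Grm5), group II by 2 (Grm2 and Grm3) and group III by 4 (Grm4, Grm6, Grm7 and Grm8). RNA came from the brains of male C57BL/6NCrSlc mice, 3 fed a control diet (mice 2, 5 and 10) and 3 fed PLDP (mice 17, 22 and 26). PLDP is a product of porcine liver broken down by protease. It made up 20% of the PLDP diet, the control diet was matched for calories, and both were fed for 16 weeks from an adult age of 16 weeks. All mice then went through a series of behavioral tests, during which PLDP was not given, and the brains were taken afterwards, so that both groups share the tests and the PLDP mice were no longer on PLDP. The comparison asks whether long-term PLDP ingestion left a difference in the brain transcripts of these receptors and of the proteins they work with.

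Metabotropic glutamate receptors are G protein-coupled receptors of class C that bind glutamate through a large extracellular domain and work as dimers. Group I receptors couple to Gq and phospholipase C and lie mostly around the postsynaptic density, where Homer and Shank proteins tether them. Group II and group III receptors couple to Gi/o, lower cyclic AMP and restrain transmitter release from presynaptic terminals. Grm3 is also carried by astrocytes, Grm4 is prominent in cerebellar granule cells, and Grm6 is known chiefly from ON bipolar cells of the retina.

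On build GRCm38, Grm5 lies at chr7:87584168-88134907 (plus strand), Grm2 at chr9:106643095-106656082 (minus), Grm3 at chr5:9485541-9725170 (minus) and Grm4 at chr17:27422387-27521403 (minus). Grm6 lies at chr11:50850685-50866208 (plus), Grm7 at chr6:110645581-111567230 (plus) and Grm8 at chr6:27275119-28135178 (minus). No stretch of 50 bases was shared between the transcripts of any of the 21 pairs of members. Antisense genes overlap exons of Grm2 (470 bases, Gm28111), Grm6 (599 bases, Gm12660) and Grm7 (130 bases, Gm20387), and Mir592 lies within 96 exonic bases of Grm8. Whether strand was used in counting is not given in the sources used here. Gm20387 had 26 to 68 counts per mouse, and the other 3 overlapping genes were listed at 0.

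A stretch of Grm5 with a motif of the kind that Homer proteins bind is shown because the results below set the receptor beside those proteins. The longest complete coding transcript of Grm5 in GENCODE M21 holds 1 Homer ligand motif, at codon 1156 of 1203, and the capitals mark it in its window on GRCm38, chr7:88130708-88130752, plus strand.
Grm5 motif window: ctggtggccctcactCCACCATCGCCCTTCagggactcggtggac
The motif was searched in the reading frame of the longest complete coding transcript only. Of 21584 genes with such a transcript, 6.95% hold it, and a match is a description of the letters and not a binding site. Among the members it was also found in Grm2 (codon 186 of 872) and Grm7 (codon 200 of 922), far from the coding end in both. Of the 18 scaffold and binding partner genes it was found in 4, Shank1, Shank2, Shank3 and Frmpd4.

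The coding ends of Grm5, Grm2 and Grm3 are shown because PDZ-domain scaffolds such as Grasp bind receptors at their C terminus. Capitals mark the last 4 codons before the stop codon, read 5′ to 3′ on the strand of the gene.
Grm5, chr7:88130843-88130869: tacacgcagagtTCTTCATCGTTGtga
Grm2, chr9:106645018-106645044: gtagactcaacaACATCGTCGCTTtga
Grm3, chr5:9485768-9485794: ctggactccaccACCTCATCTCTGtga
The annotated complete transcripts of Grm5, Grm2 and Grm3 have 1 coding end each, and those of Grm4, Grm7 and Grm8 have 2 each. Counts per gene do not tell such isoforms apart.

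Totals were 18797061 to 23938729 counts per mouse, and 18580 features passed the filter on low counts. Of these, 8.60% were called between the diets at an unadjusted p under 0.05 in edgeR's quasi-likelihood test, 4.91% as higher and 3.69% as lower in the PLDP mice, and 6 features had an adjusted p under 0.05. In 14.2% of the tested features the 3 PLDP mice did not overlap the 3 control mice. Some genes that brain cells use throughout (mt-Co2, mt-Nd4, Pfdn5 and Polr2k) were listed at 0 in every mouse. A listed 0 was therefore not read as a lack of transcript. Levels below are TMM-scaled CPM values (counts divided by the scaled library size), and fold changes are fitted log2 differences, PLDP minus control, with their standard error. The 6 libraries come from separate mice, and in whole-brain RNA fewer cells of a type and less RNA per cell cannot be told apart.

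None of the 6 members that passed the filter was called between the diets. The count called was 0 of 6, where 8.60% of all features were called, and 0 of 6 members had groups that did not overlap. It was also 0 of 6 in each of the 15 alternative fits. Fitted differences ran from -0.09 (Grm7) to 0.05 (Grm3), 5 of 6 were below 0, and their median size was 0.05, against 0.07 over all features tested. The seventh member, Grm6, was listed at 0 counts in every mouse and could not be compared.

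Grm5, the group I receptor of the postsynaptic density, had 111, 119 and 112 CPM in control mice 2, 5 and 10. It had 107, 114 and 116 CPM in PLDP mice 17, 22 and 26. Every PLDP value but the lowest lay within the control range, and that lowest value was mouse 17. The fitted difference was -0.02 ± 0.05 (SE), a change of -1.22% with a 95% interval of -7.84% to 5.88% (edgeR unadjusted p = 0.714, adjusted p = 0.955). The sign of this difference turned when 1 mouse was left out, to 0.01 without control mouse 5 and to 0.02 without PLDP mouse 17.

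Grm2, a presynaptic group II receptor, had 45.3, 45.2 and 45.4 CPM in the control mice, the narrowest control range of the 6 genes. The PLDP mice had 42.6, 43.0 and 46.3 CPM, so that 2 of them lay below the control mice and 1 above. The fitted difference was -0.04 ± 0.05 (95% interval of the change, -10.5% to 4.96%, edgeR unadjusted p = 0.422, adjusted p = 0.874). Grm3, the group II receptor that astrocytes also carry, was the only tested member fitted higher. It had 45.9, 43.4 and 44.4 CPM in the control mice and 42.9, 47.9 and 47.7 CPM in the PLDP mice. PLDP mouse 17 was the lowest of all 6 mice, and PLDP mice 22 and 26 were the highest. Grm3 differed by 0.05 ± 0.06 (95% interval of the change, -4.81% to 12.8%, edgeR unadjusted p = 0.389, adjusted p = 0.862).

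Grm4, the group III receptor of cerebellar granule cells and other presynaptic terminals, had 121, 106 and 122 CPM in the control mice. It had 122, 114 and 107 CPM in the PLDP mice, and each diet held mice near both ends of the range. Grm4 differed by -0.03 ± 0.06 (95% interval of the change, -10.1% to 6.83%, edgeR unadjusted p = 0.631, adjusted p = 0.936), and it turned to 0.01 both without control mouse 10 and without PLDP mouse 26. Grm7, the group III receptor placed at the release site of the presynaptic terminal, had the smallest p of the members. It had 59.5, 63.7 and 64.4 CPM in the control mice and 55.7, 59.6 and 60.7 CPM in the PLDP mice. The lowest value was PLDP mouse 17, and control mouse 2 lay below PLDP mice 22 and 26, so the diets overlapped. Grm7 differed by -0.09 ± 0.05 (95% interval of the change, -13.3% to 1.41%, edgeR unadjusted p = 0.101, adjusted p = 0.652), and between -0.13 and -0.06 over the fits that left out 1 mouse. Grm8, the least abundant tested receptor, had 14.1, 13.3 and 13.97 CPM in the control mice and 12.6, 13.9 and 12.7 CPM in the PLDP mice. PLDP mice 17 and 26 lay below the control mice and mouse 22 within them. Grm8 differed by -0.07 ± 0.09 (95% interval of the change, -16.2% to 7.54%, edgeR unadjusted p = 0.393, adjusted p = 0.864).

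**Figure D1:**
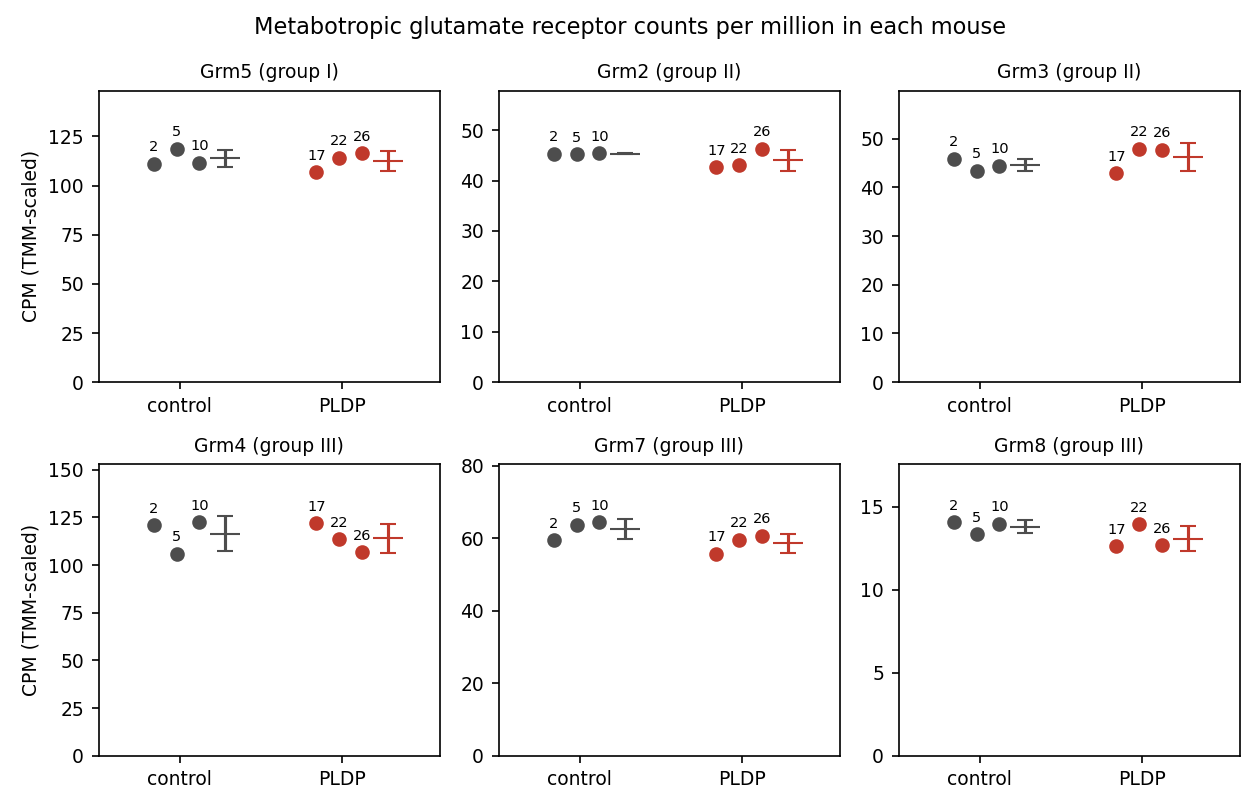
CPM of each tested member in each mouse (points, labelled with the mouse number), with the mean and SD of 3 mice per diet beside them. The y axes start at 0, and in all 6 panels the control and PLDP mice overlap, as for Grm7 with 59.5 to 64.4 CPM in control and 55.7 to 60.7 CPM in PLDP mice.

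The intervals bound what a diet difference could be at this depth and number of mice. Over the tested receptors the upper ends of the intervals were at most 12.8% (Grm3), and the lower ends reached down to -16.2% (Grm8). Of all tested features, 58.2% had a fitted difference no larger in size than that of Grm7, the largest of the members.

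Per kilobase of annotated exon, the scale on which levels of different genes were compared, Grm4 was the highest member. Its median over the 6 mice was 19.6 CPM per kb. Grm3 followed with 14.8, Grm5 with 11.01, Grm7 with 10.2, Grm2 with 9.25 and Grm8 with 1.38 CPM per kb. Grm5 and Grm7 overlapped in range and were in this order in 5 of 6 mice. The other neighbours held their order in 6 of 6 mice, with Grm7 (lowest 9.463) and Grm2 (highest 9.458) barely apart. Grm2 was 6.72 times Grm8 on this scale. With the longest annotated transcript as the length, Grm7 (14.3 CPM per kb) stood above Grm5 (14.02 CPM per kb). The order of the other members was as before, but the ratio of Grm2 (9.61 CPM per kb) to Grm8 (2.84 CPM per kb) was smaller.

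Summed by receptor group, group III took the largest share of the summed receptor level, 47.4% ± 1.29 in control and 46.4% ± 1.86 in PLDP mice (SD, n = 3 each). Group II took 35.9% ± 0.544 and 36.9% ± 1.34, and Grm5, standing for group I, took 16.7% ± 0.968 and 16.8% ± 0.519. The ranges of the diets overlapped for each group, so the differences in makeup between the diets were within the spread of the mice. Within group III, Grm4 alone took 27.1% to 31.7% of the summed level and Grm8 took 1.94% to 2.13%.

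**Figure D2:**
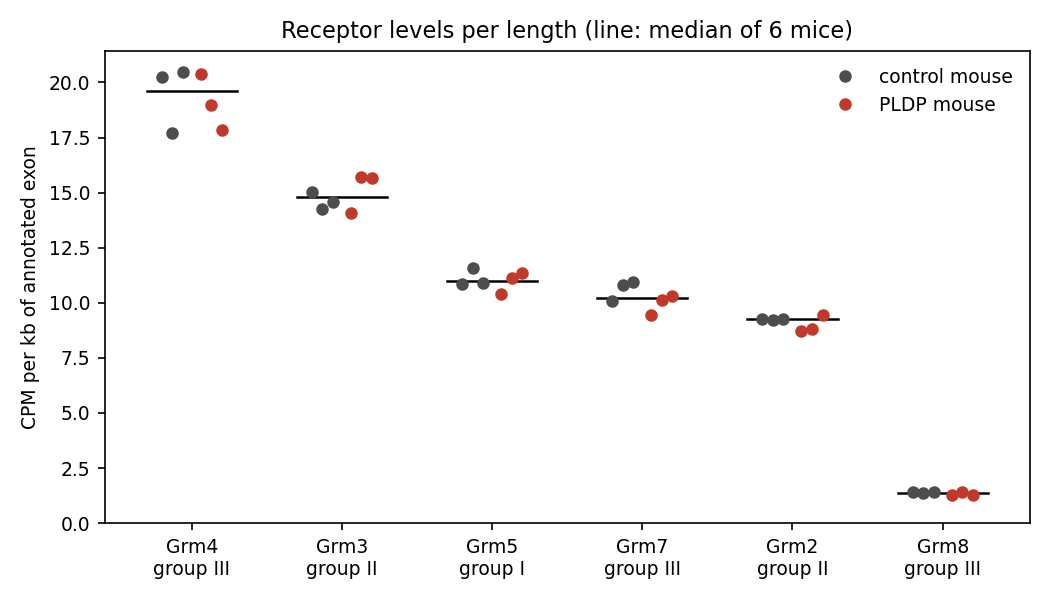
Level of each tested member in CPM per kb of annotated exon for every mouse, with control mice in grey, PLDP mice in red and a line at the median of the 6 mice. Grm4 leads with a median of 19.6 CPM per kb and Grm8 is lowest with 1.38 CPM per kb.

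Mice differed more in Grm4 than in the other members. Its coefficient of variation over the 6 mice was 6.63%, against 3.29% for Grm2 and 5.26% for Grm7. The SD of log2 CPM within a diet was 0.11 for Grm4, and 94.2% of the 2011 features with similar counts had a smaller one. For Grm2 only 19.9% of features with similar counts had a smaller SD. Mice high or low in Grm4 were also high or low in cerebellar granule cell markers, a list of 8 genes that does not hold Grm4, although the orders differ between neighbouring mice. The summed level of these markers was 1147, 968 and 1157 CPM in control mice 2, 5 and 10, and 1146, 1113 and 947 CPM in PLDP mice 17, 22 and 26. The lowest 2 mice (control mouse 5 and PLDP mouse 26) were also the lowest 2 in Grm4, in the other order. The 3 mice above 1140 CPM were the 3 mice above 120 CPM in Grm4. The likeness was not particular to granule cells or to the cerebellum. The summed level of 6 Purkinje cell markers ran the same way, with 904, 781 and 917 CPM in control mice 2, 5 and 10 and 921, 847 and 834 CPM in PLDP mice 17, 22 and 26. So did that of 5 blood markers, with 585, 326 and 521 CPM in these control mice and 493, 457 and 400 CPM in these PLDP mice. Of the 8 granule cell markers, 8 were tested and 0 were called between the diets. The part of the amount of cerebellum or of blood in the Grm4 values was not tested. These pairings of values were chosen after they had been seen.

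**Figure D3:**
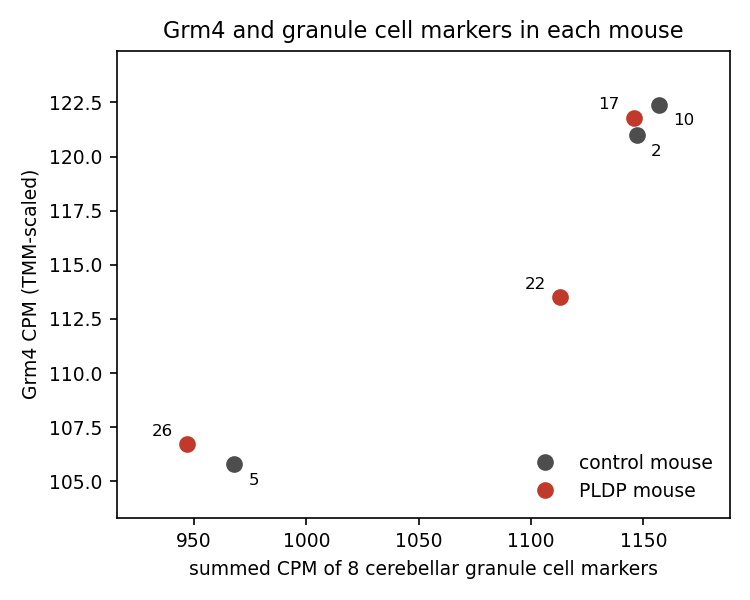
Grm4 in CPM against the summed CPM of 8 cerebellar granule cell markers, 1 point per mouse labelled with its number (control grey, PLDP red, axes not starting at 0). Control mouse 5 (968 and 106 CPM) and PLDP mouse 26 (947 and 107 CPM) lie at the lower left, with mice of both diets at the upper right.

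The profile of Grm7 over the 6 mice was most like those of Cpsf6, Zfp516 and Baiap3 among 11646 genes with a mean of at least 100 counts. Cpsf6 takes part in cleavage of pre-mRNA 3′ ends, Zfp516 is a zinc finger transcription factor and Baiap3 acts in dense core vesicle release. The root mean square difference of centred log2 CPM from Grm7 was 0.017 for Cpsf6, Zfp516 and Baiap3, against a median of 0.098 over all genes compared. Cpsf6 had 122, 127 and 131 CPM in the control mice and 112, 122 and 122 CPM in the PLDP mice (edgeR adjusted p = 0.631).

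Genes for proteins that hold the receptors at the synapse were higher in part. Of 18 scaffold and binding partner genes, 17 were tested, 6 were called higher in the PLDP mice (4.91% of all features were) and 0 were called lower (3.69% of all features were). The list was chosen with earlier results of these data known, so these counts describe it and are not independent evidence. The median difference over the 17 genes was 0.05, against -0.0006 over all features tested. In this fit none of the 6 had an adjusted p under 0.05. With other settings some did: Shank1 (0.000173), Grasp (0.00233), Shank2 (0.00647) and Homer1 (0.0164) in edgeR with no filter on low counts, Shank1 in DESeq2 (0.0403), Grasp in edgeR's exact test (0.0162), and Grasp (0.0158) and Shank1 (0.0494) in its likelihood ratio test. Over all features, adjusted calls numbered 180 with no filter, 23 in DESeq2, 65 in the exact test and 75 in the likelihood ratio test, against 6 in the fit described here. Without PLDP mouse 17 the adjusted p was under 0.05 for all 6, from 0.000111 (Shank1) to 0.0154 (Dlg4), in a fit where 182 features passed over all, against 6 with every mouse. In 4 of the 17 the diets did not overlap, against 14.2% of all features. Shank1, Shank2, Homer1 and Dlg4, and Kcnj6 described further on, also appear in a picture of genes tied to cognition or anxiety (read by eye) that the study made from these same libraries, so their direction here is not independent evidence.

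Shank1, a master scaffold of the postsynaptic density that binds Homer, had 425, 424 and 434 CPM in the control mice. It had 451, 509 and 526 CPM in the PLDP mice, all above the highest control mouse. The fitted difference was 0.21 ± 0.05 (edgeR unadjusted p = 0.000369, adjusted p = 0.147). Its relative Shank2 had 125, 123 and 130 CPM in the control and 131, 151 and 155 CPM in the PLDP mice, with PLDP mouse 17 just above the highest control mouse. The fitted difference of Shank2 was 0.21 ± 0.06 (edgeR adjusted p = 0.261). Shank3, the third of the family, had 228 to 237 CPM in the control and 225 to 257 CPM in the PLDP mice, and its difference of 0.05 ± 0.05 was not called.

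Grasp, also named tamalin, is a PDZ scaffold of group I receptors that acts in their trafficking. It had 41.7, 37.4 and 44.1 CPM in the control mice and 47.2, 50.2 and 52.8 CPM in the PLDP mice, without overlap. Grasp differed by 0.29 ± 0.06 (edgeR unadjusted p = 0.000388, adjusted p = 0.147), the largest of the list. Dlg4 (PSD-95), the central scaffold of excitatory synapses, had 479 to 493 CPM in the control and 508 to 547 CPM in the PLDP mice, a difference of 0.13 ± 0.04 (edgeR adjusted p = 0.326). Shank1, Shank2, Grasp and Dlg4 were called higher in all 15 alternative fits.

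Homer1 is known to bind group I receptors through a ligand motif of the kind printed above, and links them to Shank proteins and to calcium stores. It had 111, 120 and 135 CPM in the control mice and 120, 145 and 154 CPM in the PLDP mice. PLDP mouse 17 lay among the control mice and control mouse 10 above it. The fitted difference was 0.20 ± 0.08 (edgeR unadjusted p = 0.0194, adjusted p = 0.461). This call was lost in DESeq2 and without control mouse 2, control mouse 5, PLDP mouse 22 or PLDP mouse 26, with differences of 0.12 to 0.18 in these 4 fits. Counts per gene cannot separate the long Homer1 forms, which cross-link receptors, from the short Homer1a form, which uncouples them.

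Homer2 and Homer3, the other Homer genes, were not called. Homer2 had 57.3 to 62.8 CPM in the control and 48.9 to 67.3 CPM in the PLDP mice, and Homer3 had 91.7 to 96.1 and 80.6 to 101 CPM. PLDP mouse 17 was the lowest of all mice in Homer2 and the highest in Homer3. Without it, Homer2 was called higher at 0.13 and Homer3 lower at -0.16. Elfn2, a synaptic adhesion protein that binds group III receptors across the cleft, had 173, 168 and 175 CPM in the control and 170, 199 and 202 CPM in the PLDP mice. Its difference of 0.15 ± 0.05 was called (edgeR adjusted p = 0.448), and the call was lost without control mouse 5 (0.13), PLDP mouse 22 (0.11) or PLDP mouse 26 (0.10). Elfn1, which recruits Grm7 to certain synapses, had 20.7 to 24.5 CPM in the control and 21.3 to 26.0 CPM in the PLDP mice and was not called (0.08 ± 0.08). Pick1, a PDZ partner of Grm7, had 8 to 14 counts per mouse and did not pass the filter.

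**Figure D4:**
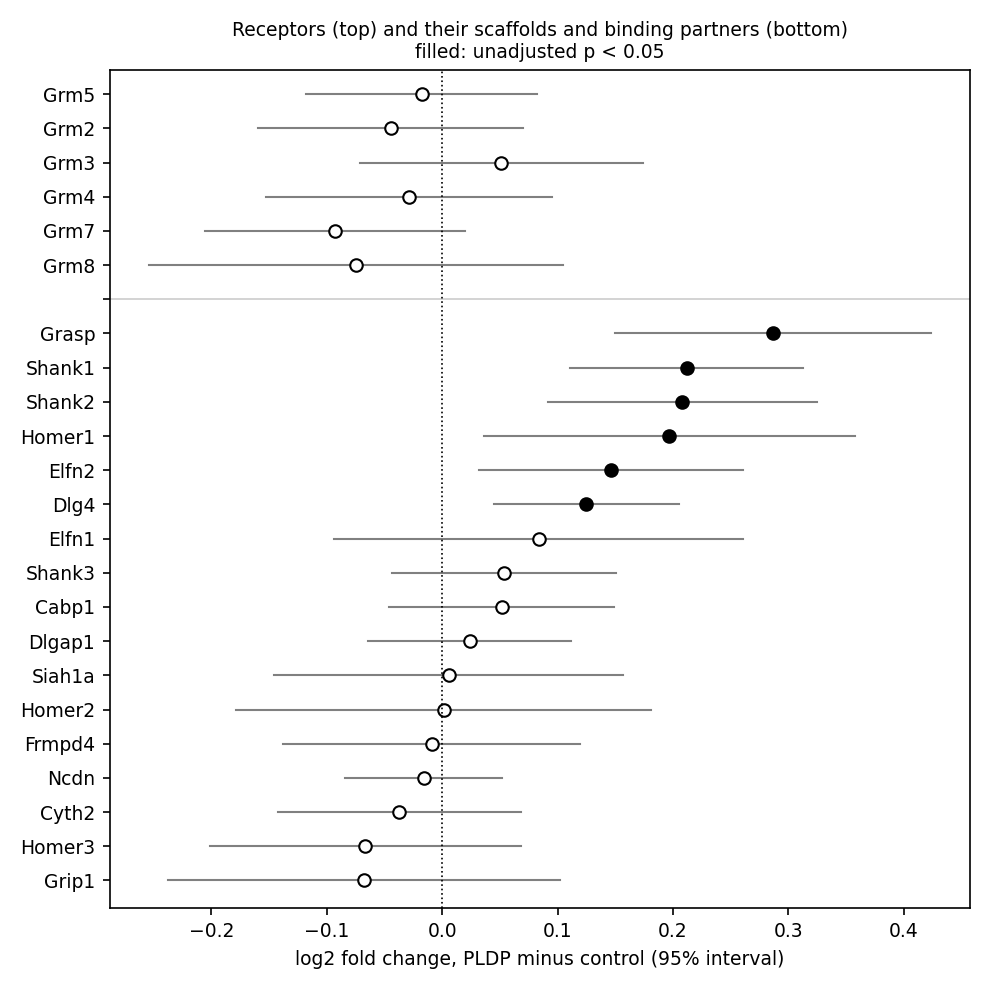
Fitted log2 difference (PLDP minus control) of each tested receptor and of each tested scaffold or binding partner gene, with 95% intervals and filled points for an unadjusted p under 0.05. The 6 receptor intervals all cover 0, and the 6 filled scaffold genes lie between 0.13 (Dlg4) and 0.29 (Grasp).

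Downstream of group I receptors, 17 genes of the Gq and phospholipase C cascade were tested, with a median difference of 0.04. Gnaq, the G protein subunit, had 197 to 202 CPM in the control and 190 to 218 CPM in the PLDP mice (0.04 ± 0.05). Plcb1, the phospholipase it activates, had 133 to 134 and 131 to 140 CPM (0.03 ± 0.04). Neither was called, and Gnaq was called higher without PLDP mouse 17 (0.08).

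Downstream of group II and III receptors, the Gi/o, adenylyl cyclase and GIRK cascade had 1 gene called of 18 tested. Over all features 8.6% were called, so this count is not above that share. Kcnj6 encodes a subunit of the GIRK potassium channel that Gi/o-coupled receptors open. It had 55.1, 51.0 and 54.9 CPM in the control and 57.7, 63.9 and 65.1 CPM in the PLDP mice, a difference of 0.21 ± 0.06 (edgeR unadjusted p = 0.00161, adjusted p = 0.261), and it was called in all 15 alternative fits. Gnao1, the main Go subunit of neurons, had 668 to 677 CPM in the control and 683 to 708 CPM in the PLDP mice. The Gnao1 groups did not overlap, but the difference of 0.05 ± 0.03 was not called (edgeR unadjusted p = 0.142, adjusted p = 0.707), and it was called without PLDP mouse 17 (0.07). Of 16 tested genes for receptor desensitization and RGS proteins, which end receptor signaling, 0 were called, and their differences lay between -0.08 and 0.08.

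Among 17 genes for supply and clearance of glutamate and of NAAG, the dipeptide transmitter that acts on Grm3, 1 was called. This is not above the 8.6% called over all features. Rimklb, a NAAG synthetase, had 45.6, 43.0 and 43.5 CPM in the control and 37.6, 40.2 and 42.7 CPM in the PLDP mice. The difference was -0.13 ± 0.06 (edgeR unadjusted p = 0.0367, adjusted p = 0.539), and the call was lost in DESeq2 and without control mouse 2 (-0.11), control mouse 10 (-0.14), PLDP mouse 17 (-0.09) or PLDP mouse 22 (-0.14). Folh1, the peptidase that degrades NAAG, had 7.99 to 8.67 CPM in the control and 6.18 to 8.77 CPM in the PLDP mice and was not called (-0.10 ± 0.13). Slc1a2, the main glutamate transporter of astrocytes, had 1407 to 1493 CPM in the control and 1430 to 1627 CPM in the PLDP mice. Its difference of 0.08 ± 0.04 was not called (edgeR unadjusted p = 0.0683, adjusted p = 0.617), but was called with no filter on low counts (0.08), with upper-quartile scaling (0.09) and without PLDP mouse 17 (0.14). Slc1a3, the other astrocyte transporter, differed by -0.02 ± 0.04.

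Of the other class C receptors, 6 of 10 were tested and 1 was called, where 8.6% of all features were called. Gprc5b, an orphan receptor, had 300 to 310 CPM in the control and 278 to 290 CPM in the PLDP mice, a difference of -0.10 ± 0.04 (edgeR adjusted p = 0.448), and the call was lost without control mouse 5 (-0.09). Of the 6 genes of the retinal Grm6 complex, 4 were tested and 1 was called. Nyx, which anchors this complex in the retina, had 1.13 to 1.36 CPM in the control and 0.695 to 0.922 CPM in the PLDP mice, a difference of -0.57 ± 0.27 (edgeR unadjusted p = 0.0454, adjusted p = 0.566). It lost its call in each of the 6 fits without 1 mouse, at -0.67 to -0.48, in DESeq2 (unadjusted p = 0.1404) and with no filter on low counts (unadjusted p = 0.0505). Of 8 retina and photoreceptor markers, 3 were tested and 0 were called.

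Over the union of the 7 lists, 95 of 104 genes were tested, 8 were called higher and 3 lower, that is 11 genes where 8.60% of all features were called. Of the 8 called higher, 6 were scaffold and binding partner genes. PLDP mouse 17 was the lowest of the 3 PLDP mice in each of these 6 genes. Without PLDP mouse 17, 18 genes of the union were called higher and 2 lower, and 8 scaffold genes were called higher and 1 lower. Calls rose over all features in that fit as well, to 1293 higher and 1072 lower of 18848 tested, against 913 and 685 of 18580 with every mouse. The number called lower was 1 without control mouse 2, control mouse 5 or control mouse 10.

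**Figure D5:**
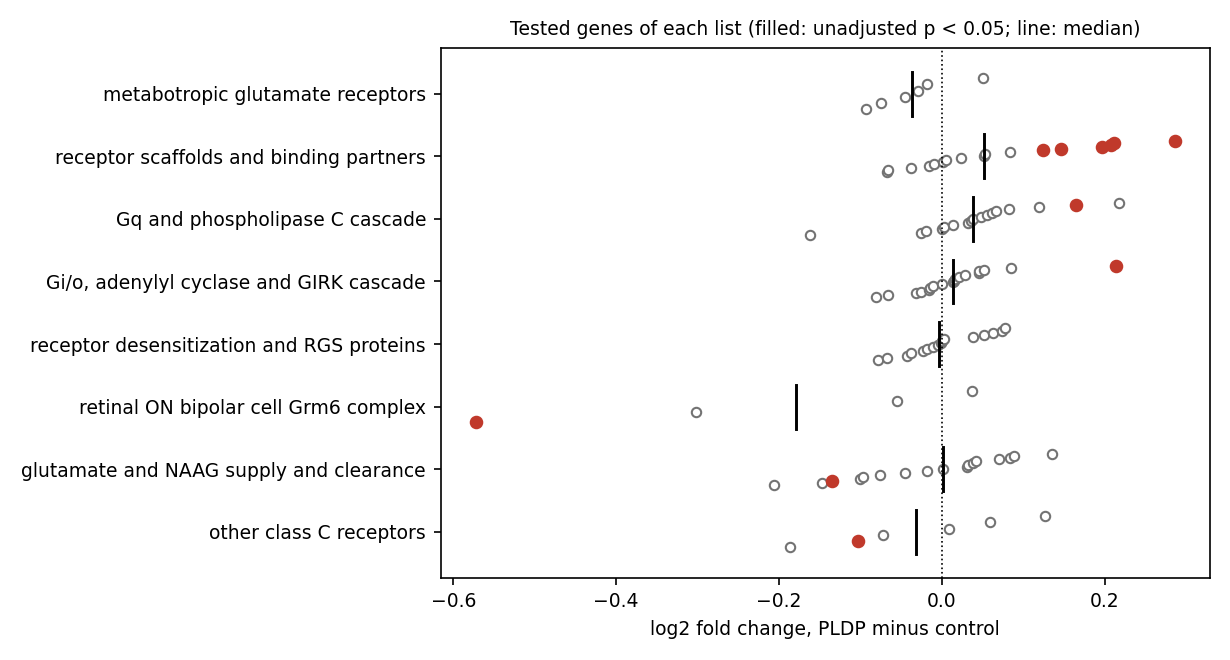
Fitted log2 difference (PLDP minus control) of the tested receptors and of each tested gene in the 7 lists, with filled points for an unadjusted p under 0.05 and a line at each list's median. The scaffold and binding partner list holds 6 filled points to the right of 0, and the receptor row at the top holds none.

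Markers of brain regions and other cell types moved beside these values. Of 10 hindbrain and spinal segment markers, 10 were tested and 9 were called lower in the PLDP mice (3.69% of all features were). The 10 markers summed to 155 to 170 CPM in the control and 89.6 to 123 CPM in the PLDP mice. Slc6a5, the glycine transporter of inhibitory hindbrain neurons, differed by -0.66 ± 0.10 (edgeR adjusted p = 0.0369), Glra1 by -0.50 ± 0.09 and Hoxb3 by -1.05 ± 0.20. Of 8 cortical and hippocampal projection neuron markers, 3 were called higher (4.91% of all features were). These were Fezf2 (0.22 ± 0.08), Rorb (0.23 ± 0.09) and Cux2 (0.14 ± 0.05). The list summed to 1225 to 1286 CPM in the control and 1301 to 1348 CPM in the PLDP mice. Most of this sum was Slc17a7, with 888 to 928 CPM in the control and 925 to 989 CPM in the PLDP mice. Slc17a7 overlapped between the diets and was not called. Of the 5 pan-neuronal markers tested, 0 were called, and their sum was 4451 to 4624 CPM in the control and 4510 to 4592 CPM in the PLDP mice. The part of the regional makeup of the samples in the scaffold gene values was not tested.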

How the data were processed

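RNA-seq was done on the brains of 3 control and 3 PLDP mice, by a stranded mRNA library kit and paired-end sequencing. The authors deposited 1 table of counts per mouse, whole numbers of reads per feature without normalization. The submitters' processing notes list cutadapt 2.9, HISAT2 2.2.0, featureCounts 2.6.0 and DESeq2 1.6.3 with builds GRCm38 and GRCh38. The annotation and the strand setting are not given in the sources used here. All 60354 rows are features, with 54777 of 55034 Ensembl identifiers found in GENCODE M21 (GRCm38), the source of names, coordinates, lengths and printed sequences. Mice were grouped by their labels, whose numbers are not shared between the diets.

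Counts were analysed with edgeR 4.0.16 in R 4.3.3. Features were kept by filterByExpr (minimum count 10, minimum total 15), TMM factors were applied, and the quasi-likelihood fit (glmQLFit, glmQLFTest) took diet as its single term over all 6 libraries. The threshold was an unadjusted p of 0.05, the threshold the study used, with Benjamini-Hochberg adjusted values over all tested features beside it. Intervals are 95% intervals of the fit. CPM per kb used the union of annotated exons, and log2 CPM for spread and likeness used a prior of 0.5. Alternatives were no filter, a minimum of 10 counts for each mouse, scaling by relative log expression, by the upper quartile or by library size, DESeq2 1.42.0, limma voom 3.58.1, edgeR's exact and likelihood ratio tests, the longest transcript as length, and leaving out each mouse. The fits were tested on simulated data. Python 3.11.15 with pandas 2.3.3 made the tables, and matplotlib 3.10.9 drew the plots.

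The members, the 7 pathway lists, the 16 marker lists and the naming rule were chosen with earlier results of these data known. By that rule the text names every member, up to 4 called genes with the smallest p from each pathway list, 13 further genes (Homer1, Homer2, Homer3, Shank1, Elfn1, Elfn2, Gnaq, Plcb1, Gnao1, Slc1a2, Slc1a3, Folh1 and Rimklb), up to 3 called genes from each marker list, and the 3 genes most like the member with the smallest p. Shank3, Pick1, Slc17a7 and the genes listed at 0 were named after their values were seen. The marker lists were hindbrain and spinal segment, cerebellar granule cells, Purkinje cells, astrocytes, dentate granule cells, cortical and hippocampal projection neurons, striatal projection neurons, olfactory bulb, retina, pituitary, choroid plexus, blood, oligodendrocytes, their precursors, microglia and neurons. A few genes named by this rule are left out of the text.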

Additional observations from a re-analysis of the deposited data

How the results depend on the processing

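No member was called in any of the 15 alternative fits. The fitted differences of Grm2, Grm3, Grm7 and Grm8 kept their direction in all 15. Leaving out 1 mouse gave ranges of -0.0436 to 0.018 for Grm5, -0.0938 to 0.0143 for Grm4, -0.0953 to 0.1304 for Homer2, -0.1587 to 0.0017 for Homer3, -0.0109 to 0.0846 for Gnaq, -0.0406 to 0.0034 for Slc1a3 and -0.1805 to 0.0465 for Folh1, crossing 0 in each. Homer2 was also -0.0013 with no filter on low counts and with library size only, and -0.0115 in limma voom. Genes of the 7 lists called higher were 7 to 9 over the fits of all mice and 6 to 18 over the fits without 1 mouse. Genes called lower were 1 in DESeq2, which also called fewer features over all (564 higher and 362 lower, against 913 and 685), and 1 to 3 without 1 mouse. All features called lower were 1046 with no filter on low counts. The causes of these shifts were not tested. With the longest transcript as the length, levels were 14.02 (Grm5), 9.61 (Grm2), 25.5 (Grm4), 14.3 (Grm7) and 2.84 (Grm8) CPM per kb, higher because the length is shorter. No paired analysis was possible because the mouse numbers are not shared between the diets.

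With 3 mice per diet, a small difference in a receptor could be missed. Grm8, with the fewest counts of the tested members, had the widest interval. The whole brain was measured, so opposite differences in separate regions would not show. In edgeR's quasi-likelihood fit with the filter and TMM scaling on all 6 mice, no gene of the 7 lists had an adjusted p under 0.05. Genes that did with other settings include Shank1, Grasp, Shank2 and Homer1 with no filter on low counts, and, without PLDP mouse 17, also Dlg4, Elfn2, Kcnj6 (0.0122) and Slc1a2 (0.0270).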

Other observations

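Further marker lists held called genes, all lower in the PLDP mice except Eomes. Over all features 8.6% were called, 3.69% as lower. Of 6 choroid plexus markers 3 were called, Ttr, the transthyretin of cerebrospinal fluid (679 to 729 CPM in the control and 535 to 670 CPM in the PLDP mice, -0.22 ± 0.06, edgeR adjusted p = 0.261), F5 (-0.31 ± 0.13) and Folr1 (-0.31 ± 0.15). Among the oligodendrocyte markers, the myelin gene Mbp was called (-0.12 ± 0.04). Of 6 precursor markers 2 were called, the lineage factors Olig2 (-0.20 ± 0.07) and Sox10 (-0.14 ± 0.05). Of 8 astrocyte markers 1 was called, the water channel gene Aqp4 (-0.11 ± 0.04), and of 6 microglia markers 1, the purinergic receptor gene P2ry12 (-0.17 ± 0.08). Of 6 olfactory bulb markers 1 was called, Eomes (0.22 ± 0.10). None of these had an adjusted p under 0.05 in edgeR's quasi-likelihood test with the filter and TMM scaling. No gene of the Purkinje cell, dentate granule cell, striatal projection neuron, blood or pituitary lists was called.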
